A study of Mus musculus with 4 samples.

Results

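The genes described here encode receptors for dopamine, serotonin, noradrenaline, adrenaline and histamine, and some of the enzymes that make or break down monoamines. They were taken as a list of 31 genes, of 19505 genes named on the arrays. A probe set (a group of probes for 1 transcript, summarised as 1 value per array) was chosen for each by its gene symbol, with the highest mean over the 4 arrays where there were several. Of the 31 genes, 26 had a probe set among the 22206 measured, and each of these had a single one. Adra1a, Adra1d, Adra2a, Adra2b and Adrb1 were not analysed here, so only 2 of 7 adrenergic receptor genes on the list have values. The measured genes comprise 5 dopamine, 12 serotonin, 2 adrenergic and 3 histamine receptor genes and 4 genes of metabolic enzymes.

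Male C57BL/6N mice, 10 weeks old, gave the cerebellum RNA. The mice of the clothianidin group (2 arrays) had received 50 mg per kg per day of this neonicotinoid insecticide by mouth for 4 days. Those of the control group (2 arrays) had received the vehicle over the same 4 days. Both groups ran on the rotarod, a test of balance and motor learning, and the brains were taken directly afterwards. The arrays are called vehicle replicates 7 and 9 and clothianidin replicates 6 and 7, after their titles. Beyond separate sample names the labels give no origin for each array, and the p-values therefore reflect only how far these samples vary, part of which may be technical.

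Monoamines reach the cerebellum mainly through long axons. Noradrenaline comes from the locus coeruleus and serotonin from the raphe nuclei and the nearby reticular formation, both in the brainstem, so most of the cell bodies that make these transmitters lie outside the dissected tissue. Many of the receptors are made by cells of the cerebellum itself, while those on the terminals of incoming fibres are transcribed in cell bodies elsewhere. Nearly all are coupled to G proteins: D1-type dopamine and beta-adrenergic receptors raise cyclic AMP, while D2-type dopamine, alpha-2 adrenergic and 5-HT1 serotonin receptors lower it, and Htr3a encodes a subunit of an ion channel opened by serotonin. Tyrosine hydroxylase, the product of Th, makes the rate-limiting step towards dopamine and noradrenaline. Ddc encodes the decarboxylase that completes dopamine and serotonin, and the monoamine oxidases encoded by Maoa and Maob break monoamines down.

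The promoters of Th and Htr2c are shown because these genes had the largest difference in each direction among the genes that stood out from the dim probe sets, as given further on. Each line holds the 250 bases upstream of the RefSeq start in build GRCm38.p6, 5′ to 3′ on the strand of the gene, with searched motifs in capitals. The Th window lies at chr7:142899996-142900245 on the minus strand and the Htr2c window at chrX:146962263-146962512 on the plus strand.
Th: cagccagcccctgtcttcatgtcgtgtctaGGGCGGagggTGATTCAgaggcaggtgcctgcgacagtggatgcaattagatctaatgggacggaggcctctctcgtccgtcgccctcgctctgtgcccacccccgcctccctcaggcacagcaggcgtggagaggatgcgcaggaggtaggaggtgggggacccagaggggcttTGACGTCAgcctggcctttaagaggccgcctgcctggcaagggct
Htr2c: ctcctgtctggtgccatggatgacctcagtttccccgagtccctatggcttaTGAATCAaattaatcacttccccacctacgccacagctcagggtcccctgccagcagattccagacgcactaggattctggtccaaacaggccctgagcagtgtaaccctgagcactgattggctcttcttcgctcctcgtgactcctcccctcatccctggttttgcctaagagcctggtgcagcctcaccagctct

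The capitals in the Th promoter mark, from left to right, a GC box (GGGCGG), a match to the AP-1 motif (TGANTCA) and a full cAMP response element (TGACGTCA), which spans bases 45 to 38 upstream of the start. In Htr2c they mark a match to the AP-1 motif. Both strands were searched, and the full cAMP response element contains its shorter core TGACG on each strand. Of the 25 listed genes with a promoter entry, only Th held the full element in this window, and 1.55% of 32851 mouse promoter windows did. The core was found in 5 of the 25 genes, Htr7, Adra2a, Adrb1, Maoa and Th, and in 17.8% of all windows. A GC box was found in 17 of the 25 genes and in 32.7% of all windows, a TATA box (TATAAA) in 2 genes, Adra2a and Ddc, and in 12.4%, the AP-1 motif in 6 genes and in 6.75%, and the NGFI-B response element (AAAGGTCA) in 1 gene, Ddc, and in 1.34%. The 25 genes had 34 windows in all, and a gene was counted if any of its windows held the motif, so the counts of genes and the shares of windows differ in unit. A match describes the sequence and is no evidence of binding. Htr3a, Htr4, Maob, Adra1a, Adra1d and Htr5b had no entry.

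**Figure D1:**
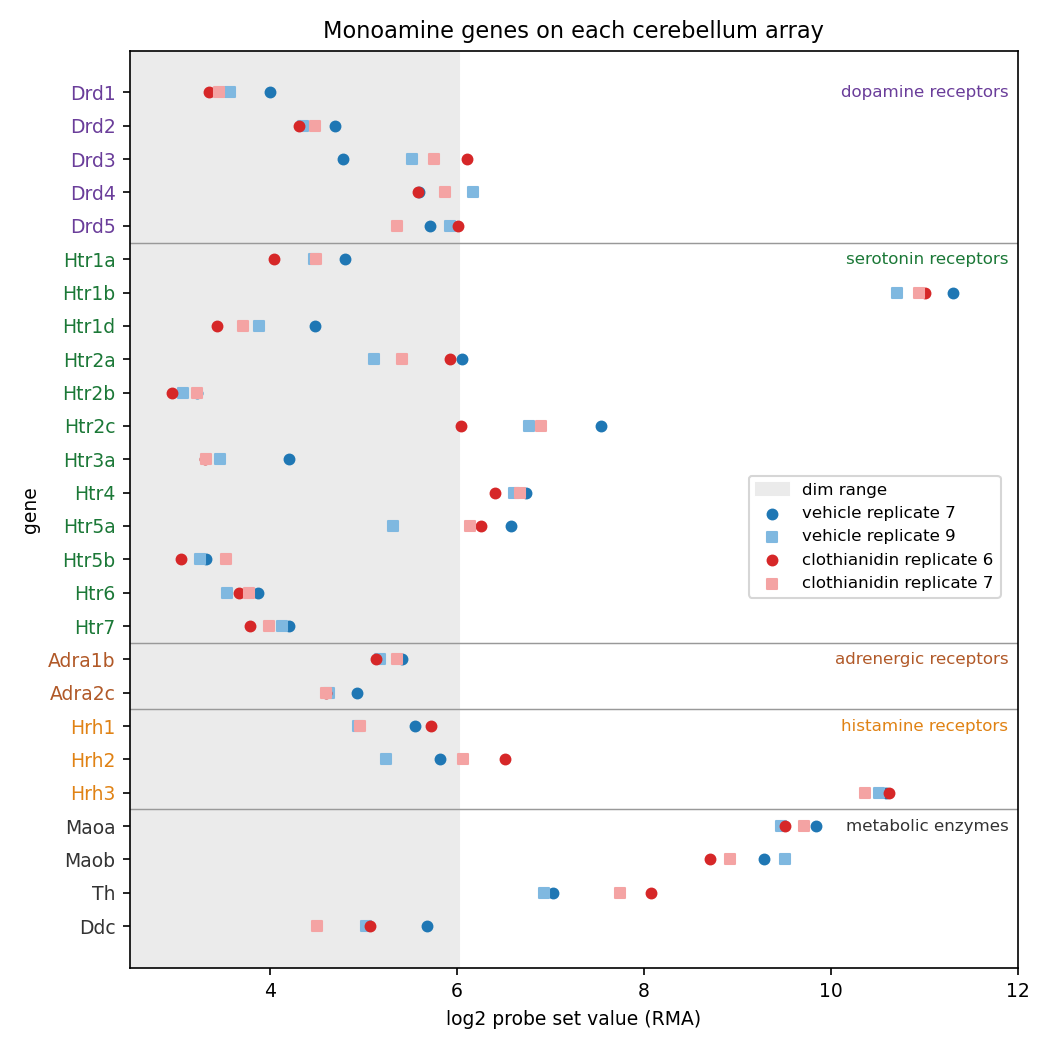
Log2 probe set values of the 26 measured monoamine genes (rows, grouped by role) on each of the 4 arrays (points, coloured by group and shaped by replicate). The shaded area is the dim range, up to 6.01. Htr1b, Hrh3, Maoa, Maob, Th, Htr2c, Htr4 and Htr5a had means above it, and only Th, Maob and some of the genes in or near the dim range had groups that did not overlap.

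Most monoamine receptor transcripts gave values in the dim range of these arrays. Olfactory and vomeronasal receptor genes, which serve in the nose, had 1412 probe sets here, and the 95th percentile of their means over the 4 arrays, 6.01 on the log2 scale, was taken as the upper limit of the dim range. Of the 26 measured genes, 8 had a mean above this limit (30.8%), against 55% of the 19572 probe sets with a gene symbol. These 8 were the serotonin receptor genes Htr1b, Htr2c, Htr4 and Htr5a, the histamine receptor gene Hrh3 and the enzyme genes Maoa, Maob and Th. A value in the dim range does not show that a transcript was absent, and brightness also depends on the probes, so levels of different genes are not compared as amounts of RNA here. Where the brightest markers of a list are named, or a list's summed level is given, this refers to probe set signal. Htr5a lay just above the limit with a mean of 6.07 and Hrh2 just below it with 5.91. With the limit at the 90th percentile of the same probe sets, 13 genes lay above it, and with the 99th percentile, 4.

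No monoamine gene passed limma at an adjusted p of 0.05 (0 of 26), and no probe set on the arrays did (0% of 22206). Clothianidin values were higher for 8 genes and lower for 18, where 48.1% of all probe sets were higher and 51.2% lower, with a median log2 difference of -0.09 against -0.01 over all probe sets. Genes in the dim range carried part of this imbalance: 12 of the 18 dim genes were lower, where 62.1% of all dim probe sets were, and their median was -0.13 against -0.09 for all dim probe sets. Above the dim range 6 of 8 genes were lower, where 42.1% of probe sets at that level were, with a median of -0.05 against 0.06. The count of lower genes was 13 of 26 without vehicle replicate 7 and 22 without vehicle replicate 9, so the split depended on which control array was kept.

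An unadjusted limma p under 0.05 was found for 3 genes, Th, Hrh2 and Drd3, or 11.5% of those measured, against 4.23% of all probe sets. All 3 were higher with clothianidin and 0 lower, against 2.3% and 1.93% of all probe sets. Without clothianidin replicate 6 the count was 0. Groups did not overlap for 9 genes, 3 higher and 6 lower, where 30.6% of all probe sets did not overlap, 15.1% higher and 15.5% lower. Above the dim range these shares were 20.2% higher and 10.4% lower, so among dim probe sets more than 15.5% were lower without overlap. Of the 9 genes without overlap, Th, Hrh2 and Drd3 were at least 1.5-fold higher and Htr1d at least 1.5-fold lower. Of all probe sets 7.61% met these limits, 4.04% higher and 3.57% lower. The difference exceeded the gap between replicates of either group for 6 of the 26 genes. The standard error of a log2 difference ranged from 0.27 to 0.41 over the 26 genes. An exact permutation test of 2 arrays against 2 cannot give a two-sided p below 0.333.

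**Figure D2:**
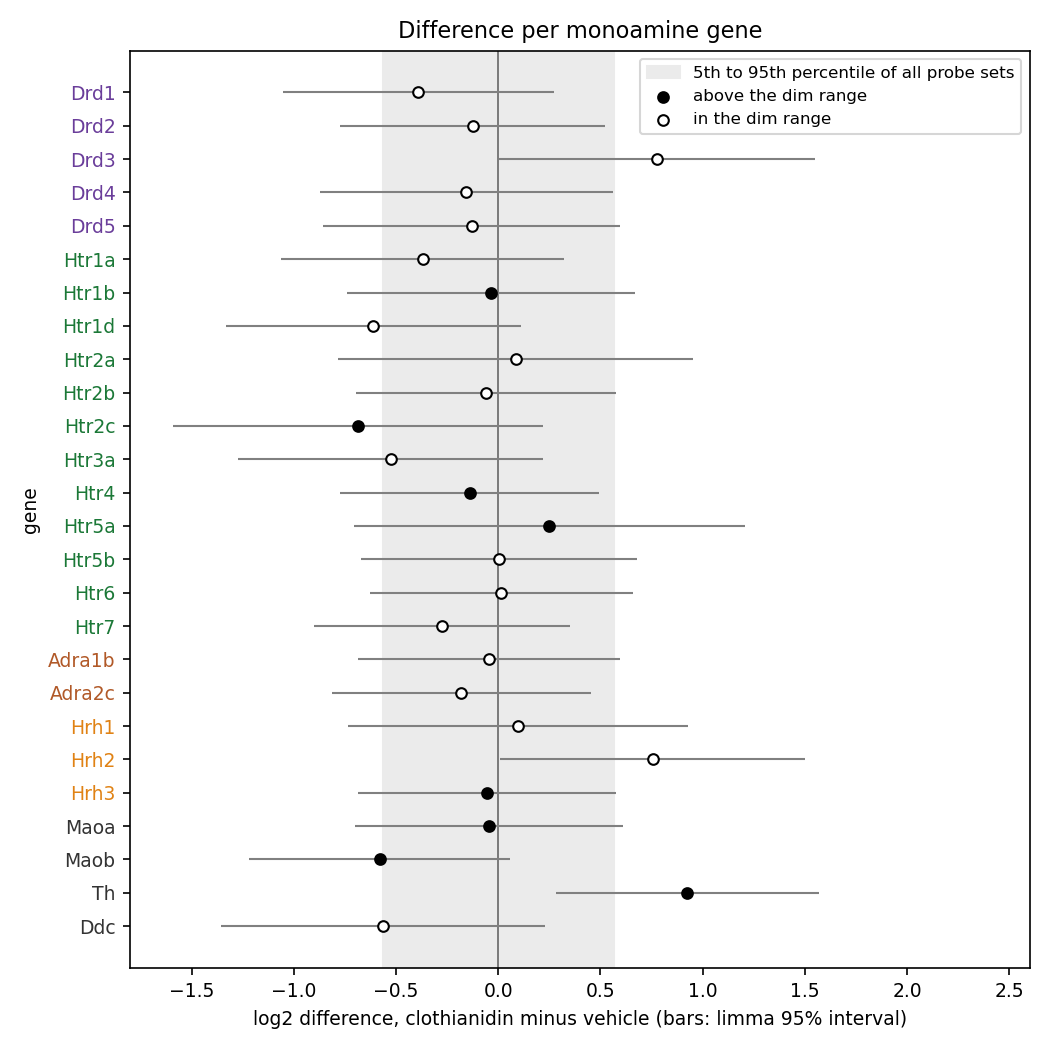
Log2 difference (clothianidin minus vehicle) of each measured gene with the 95% interval from limma (bars), with filled points for genes above the dim range and open points for genes in it. The shaded area holds the central part of all probe sets, from -0.56 to 0.56 (5th to 95th percentile). The intervals of Th, Hrh2 and Drd3 lie to the right of 0, those of Hrh2 and Drd3 barely so, and before adjustment for multiple tests.

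Th, the gene of tyrosine hydroxylase, had the largest difference of the list. Vehicle replicates 7 and 9 read 7.03 and 6.93 on the log2 scale, and clothianidin replicates 6 and 7 read 8.07 and 7.74, the order in which values are given from here on. Both clothianidin values lay above both vehicle values, and the gap between the groups was wider than either gap within a group. Group means were 6.98 ± 0.07 and 7.91 ± 0.23 (SD, n = 2 each). They differed by 0.93 (log2), or 1.90-fold, with a standard error of 0.28 and a 95% interval from 0.28 to 1.57. The unadjusted limma p was 0.0106 and the adjusted p 0.997, so the difference did not pass. Of all 22206 probe sets, 130 (0.585%) had a smaller p and 182 (0.82%) were higher by at least as much. With each array left out in turn the difference lay between 0.76 and 1.09.

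In the mouse cerebellum Th is known from noradrenergic fibres, which carry the protein, and from some Purkinje cells, which contain the transcript. All 4 measured markers of noradrenergic neurons, of 5 listed, were in the dim range: Dbh, which encodes the enzyme that turns dopamine into noradrenaline, had a mean of 4.25, the noradrenaline transporter gene Slc6a2 4.41, the vesicular transporter gene Slc18a2 5.34 and the transcription factor gene Phox2a 4.39. Their summed level (log2) was 6.71 and 6.65 for vehicle against 6.57 and 6.82 for clothianidin, so the groups overlapped. All 8 measured Purkinje markers of 9 listed were above the dim range, with a summed level of 20.06 and 19.86 with vehicle against 20.10 and 20.16 with clothianidin, and 4 of the 8 had both clothianidin values above both vehicle values, where 20.2% of all probe sets above the dim range did. The 3 brightest were the zebrin gene Aldoc with a log2 difference of -0.005, the carbonic anhydrase-related gene Car8 with 0.15 and the G protein regulator gene Rgs8 with 0.11. Among the 4 without overlap, named here after their values were seen, Calb1 was at 15.74 and 15.75 with vehicle against 16.51 and 16.30 with clothianidin, and Pcp2 at 16.40 and 16.10 against 16.68 and 17.18. Of 5 markers of dopaminergic neurons 4 were higher and 1 lower, and 3 were in the dim range. Among the dim ones the dopamine transporter gene Slc6a3, named after its values were seen, was at 4.27 and 4.50 with vehicle against 4.95 and 4.97 with clothianidin, without overlap, a log2 difference of 0.57 with an unadjusted limma p of 0.0668 and an adjusted p of 0.997. The summed level of that list was 10.66 and 12.73 for vehicle against 12.11 and 11.53 for clothianidin. The part of any of these cells in the Th values was not tested. In bulk tissue, fewer cells of a type and less RNA per cell cannot be told apart, nor can more of either.

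Ddc, whose enzyme follows tyrosine hydroxylase in the pathway and also completes serotonin, was in the dim range and did not go with Th. Its values were 5.68 and 5.02 with vehicle against 5.07 and 4.50 with clothianidin, which overlap. The log2 difference was -0.56 with a standard error of 0.34 and an unadjusted limma p of 0.139. Vehicle replicate 7 held the highest value and clothianidin replicate 7 the lowest.

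The monoamine oxidase genes lie side by side on the X chromosome and encode outer mitochondrial membrane enzymes. Maoa, whose enzyme prefers serotonin and noradrenaline, was at 9.84 and 9.47 with vehicle against 9.51 and 9.71 with clothianidin. The groups overlapped fully, with a log2 difference of -0.04, a standard error of 0.28 and a 95% interval from -0.70 to 0.61. Maob, known from astrocytes and from serotonergic and histaminergic neurons, was at 9.28 and 9.51 with vehicle against 8.71 and 8.92 with clothianidin. Both clothianidin values lay below both vehicle values. Group means were 9.39 ± 0.16 and 8.81 ± 0.15 (SD, n = 2 each). The log2 difference of -0.58 had a standard error of 0.28 and a 95% interval from -1.22 to 0.06, and limma gave an unadjusted p of 0.0689 and an adjusted p of 0.997. Of all probe sets, 5.89% had a smaller p. The difference lay between -0.69 and -0.46 with each array left out. Whether Maob differed from Maoa in its response was not tested.

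Glial markers beside Maob went in different directions. All 6 measured oligodendrocyte markers of 7 listed had lower means with clothianidin, where 42.1% of probe sets above the dim range did. For 2 of them, Cnp and Mal, the groups did not overlap, where 10.4% of those probe sets were lower without overlap. Cnp was at 14.39 and 14.17 with vehicle against 13.48 and 13.62 with clothianidin, Mal at 14.69 and 14.73 against 14.26 and 14.17, and Mbp, the brightest, had a log2 difference of -0.005. The summed level of the oligodendrocyte list was 17.81 and 17.58 with vehicle against 17.77 and 17.38 with clothianidin. Of 7 markers of Bergmann glia and astrocytes 4 were higher and 3 lower, with a summed level of 17.01 and 17.17 against 17.01 and 16.86, and the 3 brightest, the glutamate transporter gene Slc1a3, the water channel gene Aqp4 and Gdf10, had log2 differences of -0.36, -0.22 and 0.29. The part of these cells in the Maob values was not tested.

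Among serotonin receptors, Htr1b was well above the dim range and did not separate the groups. It encodes an inhibitory receptor on nerve terminals, and its values were 11.31 and 10.71 with vehicle against 11.01 and 10.94 with clothianidin. The clothianidin values lay between the vehicle ones. The log2 difference was -0.03 with a standard error of 0.30 and a 95% interval from -0.74 to 0.67, so changes of that size in either direction could not have been told from the spread. The sign turned without vehicle replicate 7, to 0.26.

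Htr2c encodes a receptor that signals through phospholipase C and is known for its abundance in choroid plexus epithelium. Its values were 7.54 and 6.77 with vehicle against 6.04 and 6.90 with clothianidin. It had the lowest log2 difference of the list, -0.69 with a standard error of 0.39, but clothianidin replicate 7 lay above vehicle replicate 9, and the unadjusted limma p was 0.119 (adjusted p = 0.997). The difference was -0.26 without clothianidin replicate 6 and -0.30 without vehicle replicate 7, so these arrays held most of it. Of all probe sets, 2.61% were lower by at least as much. Of 13 measured choroid plexus markers of 15 listed, 6 were higher and 7 lower, with a median log2 difference of -0.10, and 9 were in the dim range. Groups did not overlap for 2 higher and 4 lower, where 15.1% and 15.5% of all probe sets did not. Vehicle replicate 7, which held the highest Htr2c value, was also highest for 7 of the 13 (53.8%), against 26.6% of all probe sets. Clothianidin replicate 6 was lowest for 3 of the 13 (23.1%), against 25.3% of all probe sets. These 3, Cldn2, Steap1 and F5, named after their values were seen, were dim and also highest on vehicle replicate 7. Folr1, also dim, went the other way without overlap, at 4.62 and 4.92 with vehicle against 5.24 and 6.05 with clothianidin. On clothianidin replicate 7 other members of the list stood out: Ttr, the transthyretin gene, was at 13.96 there and between 5.67 and 6.38 elsewhere, and Kcnj13 at 8.92 there and between 6.73 and 6.99 elsewhere. The other markers above the dim range were Clic6, at 9.17 and 8.60 with vehicle against 8.85 and 8.72 with clothianidin, and Otx2, with a log2 difference of 0.12. The summed level of the list was 10.26 and 9.94 for vehicle against 10.17 and 14.08 for clothianidin. The part of choroid plexus tissue in the Htr2c values was not tested.

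Htr4 and Htr5a lay near the limit of the dim range. Htr4, coupled to cyclic AMP, was at 6.74 and 6.61 with vehicle against 6.40 and 6.67 with clothianidin, with a log2 difference of -0.14 and a standard error of 0.28. Htr5a was at 6.58 and 5.31 with vehicle against 6.25 and 6.14 with clothianidin. Its vehicle arrays differed by more than those of any other measured gene of the list, and the difference of 0.25 had a standard error of 0.41 and turned to -0.39 without vehicle replicate 9. Neither gene separated the groups.

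The other 8 serotonin receptor genes, Htr1a, Htr1d, Htr2a, Htr2b, Htr3a, Htr5b, Htr6 and Htr7, were in the dim range, with single values from 2.95 to 6.05. Groups did not overlap for Htr1d, Htr3a and Htr7, each lower with clothianidin, or 25% of the 12 serotonin receptor genes. Of all probe sets 15.5% were lower without overlap. The share was 10.4% above the dim range, so it was higher than 15.5% among dim probe sets, where these genes lie. Htr1d, a close relative of Htr1b, was at 4.48 and 3.88 with vehicle against 3.43 and 3.71 with clothianidin. Its means were 4.18 ± 0.42 and 3.57 ± 0.20 (SD, n = 2 each), with a log2 difference of -0.61, a standard error of 0.31 and an unadjusted limma p of 0.0868. Only its first vehicle value lay above the median of the olfactory and vomeronasal probe sets, 4.17, so the fold is of uncertain size. Htr3a was at 4.20 and 3.46 against 3.30 and 3.31, and Htr7 at 4.20 and 4.12 against 3.78 and 3.99. Differences for Htr2b, Htr5b and Htr6 were -0.06, 0.005 and 0.015.

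A pattern across single arrays ran through the serotonin receptors. Vehicle replicate 7 held the highest value for 10 of the 12 genes (83.3%), where it did so for 26.6% of all probe sets. Clothianidin replicate 6 held the lowest value for 8 of the 12 (66.7%), against 25.3% of all probe sets and 41% of the olfactory and vomeronasal ones. The median deviation of the 12 genes from their own means was 0.33 on vehicle replicate 7, -0.04 on vehicle replicate 9, -0.22 on clothianidin replicate 6 and 0.05 on clothianidin replicate 7. Vehicle replicate 9 and clothianidin replicate 7 thus lay close to each other. The olfactory and vomeronasal probe sets deviated by -0.01, 0.15, -0.16 and -0.01 on the same arrays, so they were low on clothianidin replicate 6 too but were not high on vehicle replicate 7. In some other lists, picked after the values were seen, vehicle replicate 7 stood high too. It held the highest value for both measured adrenergic receptor genes and for 7 of 13 choroid plexus markers. It did so for 4 of 5 smooth muscle and pericyte markers (80%, median deviation 0.31) and 3 of 5 endothelial markers (60%, median deviation 0.34). Elsewhere it was highest for 0 of 3 histamine receptor genes and 0 of 8 markers of meninges and fibroblasts. The same count was 0 of 5 for microglia and macrophages and 0 of 5 for dopaminergic neurons. The pattern was noticed in these values, and the part of any of these cells in it was not tested.

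**Figure D3:**
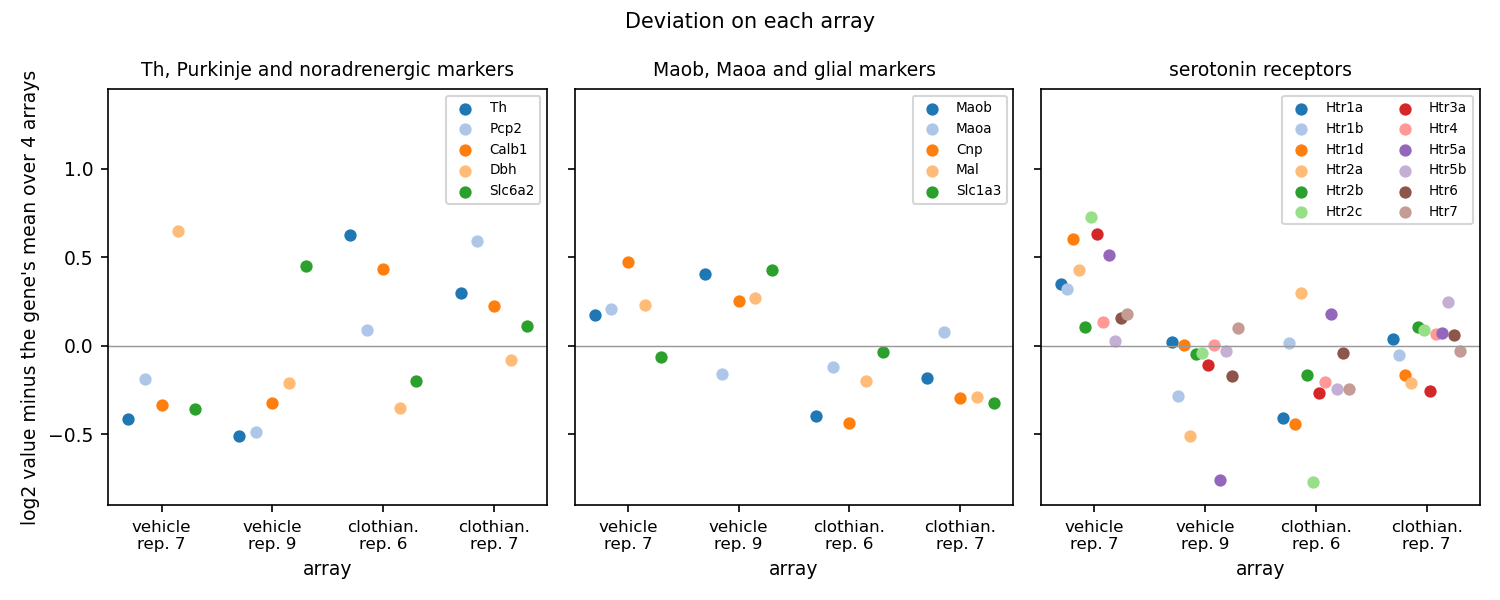
Log2 value minus the gene's mean over the 4 arrays (vertical axis) on each array (horizontal axis), for Th with Purkinje and noradrenergic markers, for Maob with Maoa and glial markers, and for the 12 serotonin receptor genes. Th and Calb1 lie above 0 on both clothianidin arrays, Maob, Cnp and Mal lie below 0 on both, and all serotonin receptor genes lie above 0 on vehicle replicate 7. The markers shown are only some of each list and were picked with the values known. Of all measured Purkinje markers 6 were higher and 2 lower, and of the noradrenergic ones 2 were higher and 2 lower. Of Bergmann glia and astrocyte markers 4 were higher and 3 lower, and all 6 oligodendrocyte markers were lower.

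Histamine receptors differed among themselves. Hrh3, the presynaptic receptor that restrains the release of histamine and other transmitters, was the tightest of the bright genes, at 10.59 and 10.51 with vehicle against 10.62 and 10.37 with clothianidin. The groups overlapped, and the log2 difference was -0.05 with a standard error of 0.27 and a 95% interval from -0.68 to 0.57. Hrh2, which raises cyclic AMP, had a mean just under the limit of the dim range. It was at 5.82 and 5.24 with vehicle against 6.51 and 6.06 with clothianidin, so both clothianidin values were above the limit and both vehicle values below it. The log2 difference of 0.76 had a standard error of 0.32 and a 95% interval that began at 0.01, and limma gave an unadjusted p of 0.0474 and an adjusted p of 0.997. Without vehicle replicate 9 it was 0.46. Hrh1, coupled to phospholipase C, was at 5.55 and 4.94 against 5.72 and 4.96, with a log2 difference of 0.09. Clothianidin replicate 6 held the highest value of all 3 genes.

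All 5 dopamine receptor genes were in the dim range, with single values from 3.34 to 6.17. Drd3, which encodes a D2-type receptor, was at 4.78 and 5.52 with vehicle against 6.10 and 5.75 with clothianidin. Groups did not overlap, and the log2 difference of 0.78 had a standard error of 0.33 and a 95% interval from 0.002 to 1.55. Across all probe sets, limma gave an unadjusted p of 0.0495 and an adjusted p of 0.997. The vehicle arrays were further apart than the nearest values of the groups, and the difference was 0.40 without vehicle replicate 7. Drd1, the main cyclic AMP-raising receptor of the striatum, was at 4.00 and 3.57 with vehicle against 3.34 and 3.45 with clothianidin, a log2 difference of -0.39. Drd2, Drd4 and Drd5 had differences of -0.12, -0.15 and -0.13 with overlapping groups. Of the 7 listed striatal markers 5 were measured, 3 higher and 2 lower. The 3 brightest, Penk, Pde10a and Ppp1r1b, were above the dim range, but these genes are also transcribed in cerebellar cells. Their log2 differences were 0.56, -0.12 and -0.19. Groups did not overlap for Penk and Ppp1r1b, where 30.5% of probe sets above the dim range did not. Tac1, dim and named after its values were seen, was at 5.24 and 4.06 with vehicle against 5.23 and 6.54 with clothianidin, which overlap. Its log2 difference was 1.235 with an unadjusted limma p of 0.0435 and an adjusted p of 0.997.

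The measured adrenergic receptor genes, Adra1b and Adra2c, were in the dim range. Adra1b, coupled to phospholipase C, was at 5.41 and 5.17 with vehicle against 5.13 and 5.36 with clothianidin, which overlap. Adra2c, an inhibitory receptor, was at 4.93 and 4.63 with vehicle and at 4.60 on both clothianidin arrays. Its log2 difference of -0.18 had a standard error of 0.28 and a 95% interval from -0.82 to 0.46.

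**Figure D4:**
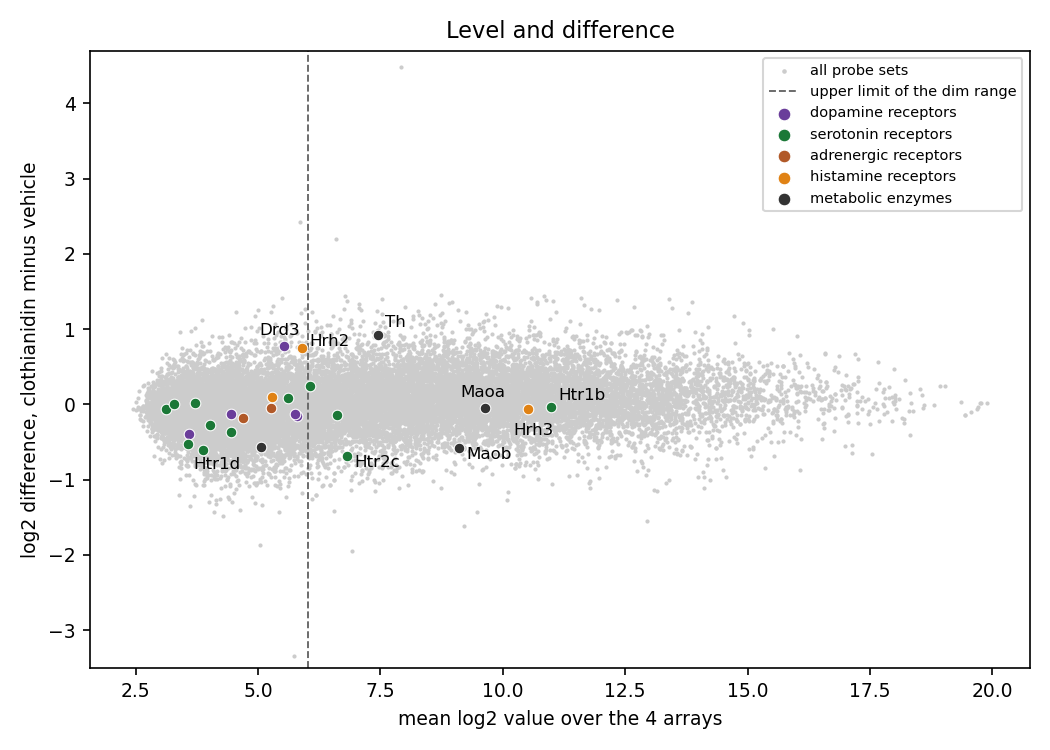
Mean log2 value over the 4 arrays (horizontal axis) against the log2 difference, clothianidin minus vehicle (vertical axis), for all 22206 probe sets in grey and the 26 measured monoamine genes in colour by role. The dashed line is the limit of the dim range at 6.01. All coloured points lie within the grey cloud, with Th at 0.93 the highest and Htr2c at -0.69 the lowest of them.

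The rest of the monoamine pathway was described with 60 further genes, of which 53 were measured and 36 lay above the dim range. None passed limma at an adjusted p of 0.05 (0% of all probe sets), and 0 of 53 had an unadjusted p under 0.05, where 4.23% of all probe sets did. Of the 53 genes 30 were higher, 22 lower and 1 equal, with a median log2 difference of 0.07. Groups did not overlap for 10 higher and 5 lower genes, or 18.9% and 9.43%, against 15.1% and 15.5% of all probe sets. Above the dim range, where 36 of the 53 genes lie, these shares of probe sets were 20.2% and 10.4%, and 42.1% were lower.

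Genes of monoamine uptake were mostly dim, and the other synthesis and cofactor genes were evenly split. Of 7 measured transporter genes of 9 listed, 6 were in the dim range and 3 were higher and 4 lower. The exception was Slc29a4, which encodes a plasma membrane monoamine transporter, at 11.02 and 11.58 with vehicle against 10.81 and 11.43 with clothianidin. Of 12 other synthesis and cofactor genes 6 were above the dim range, 5 were higher and 6 lower. Tph2, the gene of the brain's rate-limiting serotonin enzyme, was at 8.05 and 9.82 with vehicle against 7.48 and 8.98 with clothianidin. It had the largest log2 difference of the pathway genes above the dim range, -0.71, with a standard error of 0.64, and the replicates within each group were further apart than the group means. The other measured markers of serotonergic neurons, the serotonin transporter gene Slc6a4 at 4.76 and Slc18a2 at 5.34 on average, were in the dim range, so 1 of 3 measured of 5 listed was above it. The summed level of that list was 8.42 and 9.91 with vehicle against 7.94 and 9.17 with clothianidin. Of 5 markers of dopaminergic neurons 3 were in the dim range, and the others, the transcription factor genes Nr4a2 and Lmx1b, are not particular to those neurons. Hdc, the histamine-synthesising enzyme gene, was at 8.68 and 7.73 with vehicle against 7.84 and 7.75 with clothianidin, above the dim range, while the other 4 mast cell markers, among them Cpa3 and Mcpt4 with means of 5.08 and 4.20, were in it.

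The breakdown genes Hnmt, Aldh2 and Sult1a1, all 3 measured of 4 listed, were above the dim range, with 2 higher and 1 lower. Hnmt, whose enzyme inactivates histamine in the brain, was at 9.28 and 9.08 with vehicle against 8.55 and 10.17 with clothianidin, so the clothianidin arrays lay on either side of the vehicle arrays. Of 4 other receptor genes measured of 6 listed, all were in the dim range, with 2 higher and 2 lower.

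Transducers downstream of the receptors were bright, with 26 of 27 measured genes above the dim range. Of the 27 genes 18 were higher and 9 lower (33.3%), with a median log2 difference of 0.13. Of all probe sets above the dim range 42.1% were lower, with a median of 0.06. Groups did not overlap for 6 higher and 3 lower genes (22.2% and 11.1%), against 20.2% and 10.4% of all probe sets above the dim range. The phospholipase C gene Plcb3 was at 8.74 and 8.37 with vehicle against 9.73 and 8.77 with clothianidin, a log2 difference of 0.69 and a standard error of 0.37. The adenylyl cyclase gene Adcy1 was at 13.23 and 13.45 against 14.40 and 13.47, so that clothianidin replicate 7 lay barely above vehicle replicate 9. Gnai3, an inhibitory G protein subunit gene, was at 9.64 and 9.43 against 10.11 and 9.99, with a log2 difference of 0.51. Gna11, a G protein subunit gene that drives phospholipase C, was at 14.38 and 13.87 against 13.54 and 13.59, with a log2 difference of -0.56. The receptor kinase gene Grk5 was at 9.22 and 8.33 against 9.63 and 9.09, which overlap. Clothianidin replicate 6 held the highest value for 17 of the 27 genes (63%), against 34.3% of all probe sets above the dim range. The same array was highest for 6 of 9 granule cell markers (66.7%), with a median deviation of 0.59 against 0.21 for the signalling genes, and the part of granule cells in these values was not tested.

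**Figure D5:**
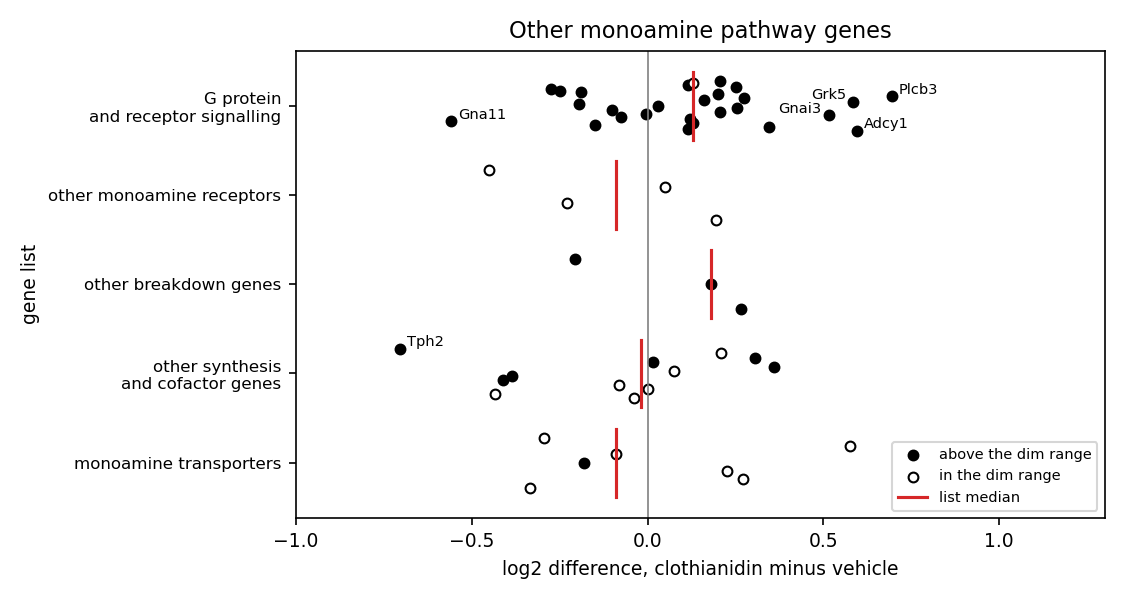
Log2 difference, clothianidin minus vehicle (horizontal axis), of the 53 measured pathway genes by list (vertical axis), with filled points for genes above the dim range, open points for genes in it and a red line at the list median. Tph2 at -0.71 and Plcb3 at 0.69 are the ends, and the signalling list has a median of 0.13.

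As a check of the tissue, the granule cell markers Zic1, Gabra6 and Cbln1 had values from 16.80 to 18.35 on all 4 arrays, and all 9 measured granule cell markers of 10 listed were above the dim range. Of 3 measured forebrain markers of 5 listed, Tbr1 and Emx1 were in the dim range and Neurod6 had a mean of 7.63. The median of all probe sets was 6.49 to 6.54 per array, and Pearson's r across probe sets, which are not independent replicates, lay between 0.986 and 0.989 for every pair of arrays. Of the other marker lists, 6 of 8 genes of meninges and fibroblasts were higher, as were 1 of 5 of smooth muscle and pericytes, 1 of 5 of endothelial cells and 3 of 5 of microglia and macrophages.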

How the data were processed

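Total RNA of the cerebellum was amplified, biotin-labelled and hybridised to Affymetrix arrays, 1 per sample, per the labels' protocols. The deposited values are log2 probe set summaries with 2 decimals, made by the authors with RMA (background correction, normalization and summary of probes), per the submitters' processing notes; the genome build is not given in the sources used here, nor are the settings or the log base, and base 2 was assumed. No scanner file was used, which leaves signal over background unknown. The number of arrays limits the precision. Gene symbols came from a platform annotation that can be old: 19572 of 22206 probe sets had 1 symbol, 0 several and 2634 none, and 0 symbols changed on update through RefSeq gene identifiers.

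Groups were compared with limma 3.58.1 in R 4.3.3 (lmFit and eBayes on all probe sets, Benjamini-Hochberg adjustment, threshold 0.05, prior SD 0.306 with 5.96 prior degrees of freedom), a procedure tested on simulated data. A summed level is log2 of the sum of the unlogged values of a list. The genes, lists and tests were chosen with earlier results of these data known. Values on each array are given for listed genes above the dim range, or with unadjusted p under 0.05, or at least 1.5-fold apart without overlap, and for some others; of the pathway genes, for the 6 with the largest difference above the dim range and some others; of the marker lists set beside a result, the 3 brightest are named. Promoter motifs were chosen after the values were seen. Alternatives were other scalings, filters on level, other moderation, other limits of the dim range and leaving out each array.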

Additional observations from a re-analysis of the deposited data

How the results depend on the processing

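Limits: with 2 arrays per group, a log2 difference of the usual size here is within the error, and a difference in the dim range has no settled size. No monoamine or pathway gene passed limma at an adjusted p of 0.05 under any alternative that kept all 4 arrays. Th, Hrh2, Drd3, Maob, Htr1d, Htr2c and Htr4 kept their direction wherever they were fitted, but most of this was fixed beforehand. The filters and other moderation leave a gene's difference unchanged. Leaving out 1 array cannot turn the sign for Th, Hrh2, Drd3, Maob and Htr1d, whose groups did not overlap. Over all probe sets the count passing was 8 in a linear model without moderation and 0 to 1 with each array left out. The number of monoamine genes lower was 6 with the filter at the median level, which leaves fewer genes, and 13 to 22 with each array left out. The number without overlap was 2 with that filter, 5 with the filter at the 25th percentile and 13 to 20 with an array left out, where fewer arrays have to be apart. The number with unadjusted limma p under 0.05 was 1 with the filter at the median level, which left out Hrh2 and Drd3. It was also 1 with the filter at the 25th percentile, 1 with an intensity trend and robust prior and 1 without moderation. For these 3 settings the cause was not tested. The number above the dim range was 13 with the limit at the 90th percentile, 4 at the 99th and 7 to 9 with an array left out. The median difference was -0.26 to 0.00 with an array left out. With an array left out the sign turned for Hrh3 (-0.18 to 0.07), Htr1b (-0.34 to 0.26), Htr5a (-0.39 to 0.88) and Maoa (-0.23 to 0.14). These were 0.07 for Hrh3 without clothianidin replicate 7, 0.26 for Htr1b and 0.14 for Maoa without vehicle replicate 7, -0.39 for Htr5a without vehicle replicate 9 and 0.06 for Maoa without clothianidin replicate 6. A fit without 1 array leaves 1 in its group, which is assumed to vary like the other group. No paired analysis was possible because the labels give no pairing of arrays between the groups.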
